A study of Mus musculus with 9 samples.

Results

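The genes described here carry out MHC class II antigen presentation, the route by which antigen-presenting cells show peptides to CD4+ T cells, in mouse lungs after ventilator-induced lung injury (VILI). They were chosen by name: the chains H2-Aa, H2-Ab1 and H2-Eb1, the invariant chain Cd74, the transactivator Ciita, the peptide editor H2-DMa and H2-DMb1, its inhibitor H2-Oa and H2-Ob, and the protease Ctss. All 10 had rows in the table of 27203 gene IDs, and 10 of 10 passed the filter on low values that left 19378 genes for testing. Whole-lung RNA was sequenced from male C57BL/6 mice of 6 to 8 weeks in 3 groups of 3 libraries. Mice of the VILI groups were ventilated for 4 h at a tidal volume of 20 ml/kg under anaesthesia and were killed at the end of ventilation (VILI 0 h) or 6 h later (VILI 6 h). Control mice were intubated and not ventilated. No ventilated group with a low tidal volume was analysed here, so ventilation itself and its high volume cannot be told apart. The values are FPKM, fragment numbers scaled by the length of the transcript and by the size of the library.

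Ciita was lower than in control in every library of both VILI groups. H2-Ob was lower, and Ctss was higher, than in control in every VILI 6 h library. H2-DMa was also lower than in control in every VILI 6 h library, by a smaller step. The libraries of the chains, Cd74 and H2-DMb1 overlapped those of control at both times. None of the 10 genes passed the adjustment for multiple testing in any comparison, so these are differences between libraries and not called changes.

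Class II molecules are pairs of an alpha and a beta chain that are assembled in the endoplasmic reticulum around the invariant chain, which blocks their groove and guides them to endosomes. There proteases, cathepsin S among them, trim the invariant chain to a short peptide, and H2-DM exchanges that peptide for peptides of the antigen, while H2-O holds H2-DM back. Dendritic cells, B cells and many macrophages carry class II in the lung, as do alveolar type 2 cells. CIITA does not bind DNA itself and acts on class II promoters through RFX, CREB and NF-Y, whose binding sites lie in a short module upstream of the gene start.

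That module is shown because it is what the class II genes share and Ciita acts on. RefSeq promoter windows (GRCm38.p6, 250 bases before to 50 bases after each gene start) were found for 7 of the 10 genes, in 8 entries, H2-DMa having more than 1. H2-Ab1, Cd74 and Ciita had no entry. Both strands were searched for CCAAT (the letters of the NF-Y site, ATTGG on the other strand), ACNGATG (letters of the X box, the RFX part of the module) and TGACG (the core of a CREB site). The 3 stretches of 60 bases that hold no annotated exon are printed on the strand of the gene, with every match in capitals.
H2-Aa, chr17:34287857-34287916, minus strand: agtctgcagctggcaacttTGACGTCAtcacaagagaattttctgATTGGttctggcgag
H2-Eb1, chr17:34305763-34305822, plus strand: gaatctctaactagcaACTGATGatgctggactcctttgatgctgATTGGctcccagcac
H2-Ob, chr17:34238803-34238862, plus strand: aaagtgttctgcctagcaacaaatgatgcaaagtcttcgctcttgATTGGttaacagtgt

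In these 3 genes and in H2-Oa and H2-DMb1, ATTGG began between 43 and 61 bases before the RefSeq start on the gene strand. Of all 32851 promoters in the table, 2.57% held ATTGG in that stretch, and 37.4% held CCAAT on either strand anywhere in the window (6 of the 8 entries here). ACNGATG was in 9.85% of all promoters and in 5 of the 8 entries, and TGACG in 20.8% and in 1 of the 8. The ACNGATG match lay 88 and 91 bases before the start in H2-Eb1 and H2-DMb1. In H2-Oa, Ctss and H2-Aa it lay farther off, at 137, 206 and 232 bases. The TGACG matches of H2-Aa lie on opposite strands and overlap. ACNGATG followed by ATTGG at a spacing of 29 to 30 bases was found for H2-Eb1 and H2-DMb1, and in 11 promoters in all (0.0335%), the others being the class II genes H2-DMb2 and H2-Eb2, the class I genes H2-D1, H2-M3, H2-Q4, H2-Q6 and H2-Q7, and BC051142 and Scaper. The stretch and the spacing were chosen after the sequences were seen. These matches describe letters in a window and not bound sites.

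In control lungs, Cd74 was the most abundant of the 10 genes at 515 ± 30.4 FPKM (mean ± SD, n = 3 for this and every group mean). The alpha chain gene H2-Aa stood at 218 ± 2.54 FPKM, above the beta chain genes H2-Ab1 at 139 ± 5.72 FPKM and H2-Eb1 at 101 ± 5.44 FPKM. Ctss followed at 76.7 ± 7.05 FPKM. The peptide editor was lower, with H2-DMb1 at 19.1 ± 0.827 FPKM and H2-DMa at 13.3 ± 0.858 FPKM. Its inhibitor was lower still, with H2-Ob at 9.16 ± 1.48 FPKM and H2-Oa last at 2.86 ± 0.649 FPKM, and Ciita lay between them at 7.12 ± 0.765 FPKM. No neighbours in this order overlapped between control libraries. In the VILI groups the order loosened: in VILI 0 h the libraries of H2-Aa overlapped those of H2-Ab1, those of H2-Ab1 overlapped those of H2-Eb1, and those of H2-Eb1 overlapped those of Ctss, while Cd74 remained above all other members in each group. In VILI 6 h the mean of Ctss, 112 FPKM, was above that of H2-Eb1, 90.2 FPKM, and that of Ciita, 4.04 FPKM, was above that of H2-Ob, 3.65 FPKM, with overlapping libraries in both pairs.

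**Figure D1:**
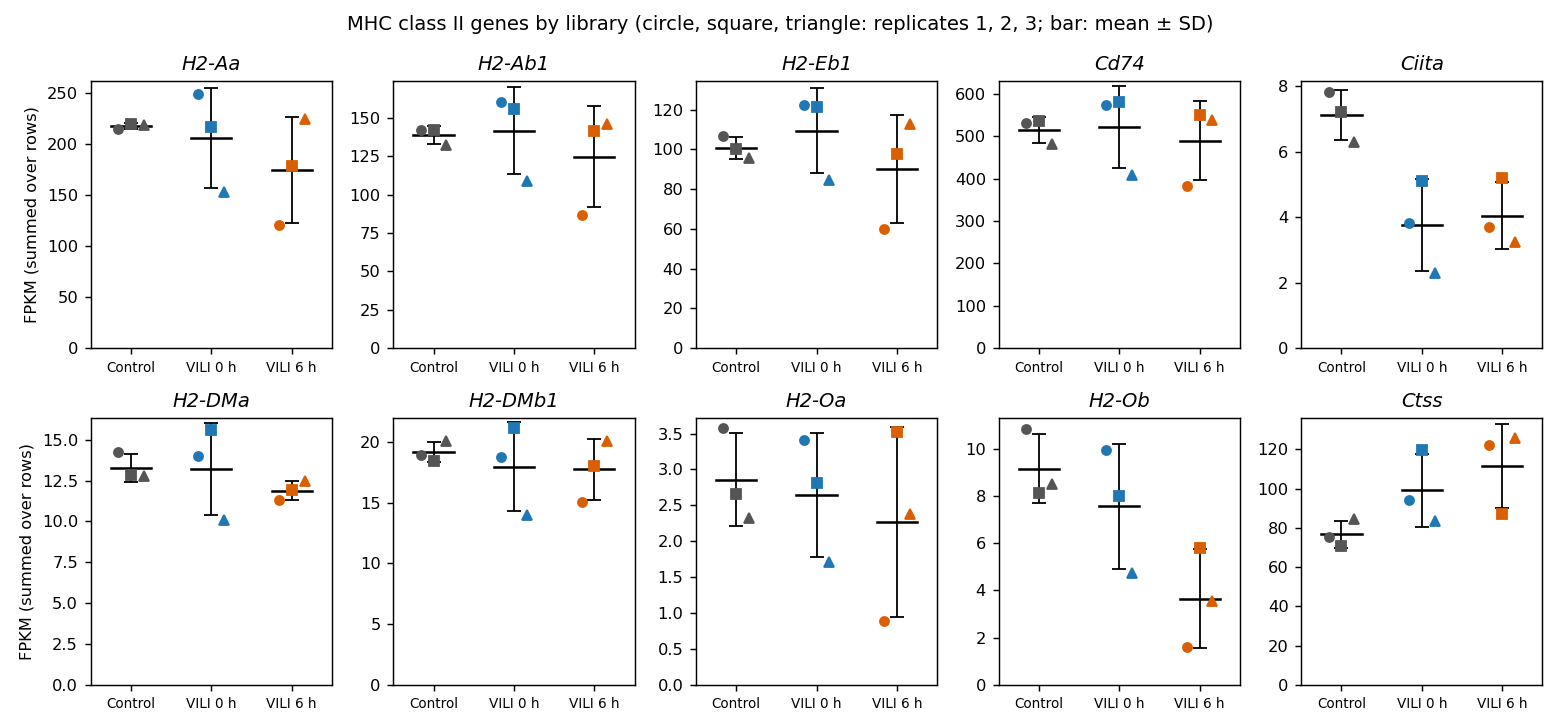
Summed FPKM of each of the 10 class II genes (y axis, linear from 0, a scale per gene) in Control, VILI 0 h and VILI 6 h libraries, with circle, square and triangle for replicates 1, 2 and 3 and bars for the mean ± SD. Ciita is lower than in control in all VILI libraries, H2-Ob in all VILI 6 h libraries, and the chain genes and Cd74 spread more widely in the VILI groups than in control.

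The study states read totals for each library, which were not used here, and the table gives no counts per gene, so no counting interval can be given. Of 10 neutrophil markers, 7 rose at VILI 0 h and 9 at VILI 6 h against control (limma, adjusted p under 0.05), and their summed level was 50.04 to 57.8 FPKM in control, 577 to 1050 FPKM in VILI 0 h and 489 to 2045 FPKM in VILI 6 h. In whole-lung RNA, fewer cells of a type and less RNA per cell cannot be told apart. A p-value from limma sets the difference between groups against the spread between libraries within groups, which is estimated over all groups together.

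For VILI 0 h against control, 0 of the 10 genes passed a Benjamini-Hochberg adjusted p of 0.05 in limma, against 0.284% of all genes tested. At an unadjusted P under 0.05, the count was 1 (Ciita), against 16.2% of all genes (6.81% higher and 9.35% lower). For VILI 6 h against control, 0 of 10 passed by limma, against 0.702% of all genes, and 3 (H2-Ob, Ctss and Ciita) had an unadjusted P under 0.05, against 20.4% (8.17% higher and 12.2% lower). For VILI 6 h against VILI 0 h, 0 of 10 passed by limma, as did 0% of all genes, and 1 (H2-Ob) had an unadjusted P under 0.05, against 10% (5.06% higher and 4.94% lower). The counts of members are thus near what these libraries gave for genes at large. The median log2 fold change of the 10 genes was -0.07, -0.20 and -0.17 in the 3 comparisons, beside -0.07, -0.09 and -0.02 for all genes tested. The lowest adjusted p of a member was 0.141, 0.121 and 0.418 in turn.

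Ciita was the gene whose groups did not overlap with control at either time, while 33.5% of all genes did not overlap at VILI 0 h (21.6% lower and 12% higher) and 24.6% at VILI 6 h. At VILI 6 h, 4 of 10 members did not overlap with control: Ciita, H2-Ob and H2-DMa were lower, against 15% of all genes, and Ctss was higher, against 9.64%. Between the VILI groups 0 of 10 members were without overlap, against 12.5% of all genes (6.25% higher and 6.28% lower). With 3 libraries against 3, a two-sided exact permutation test cannot go below 0.1, and these genes reached that floor.

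**Figure D2:**
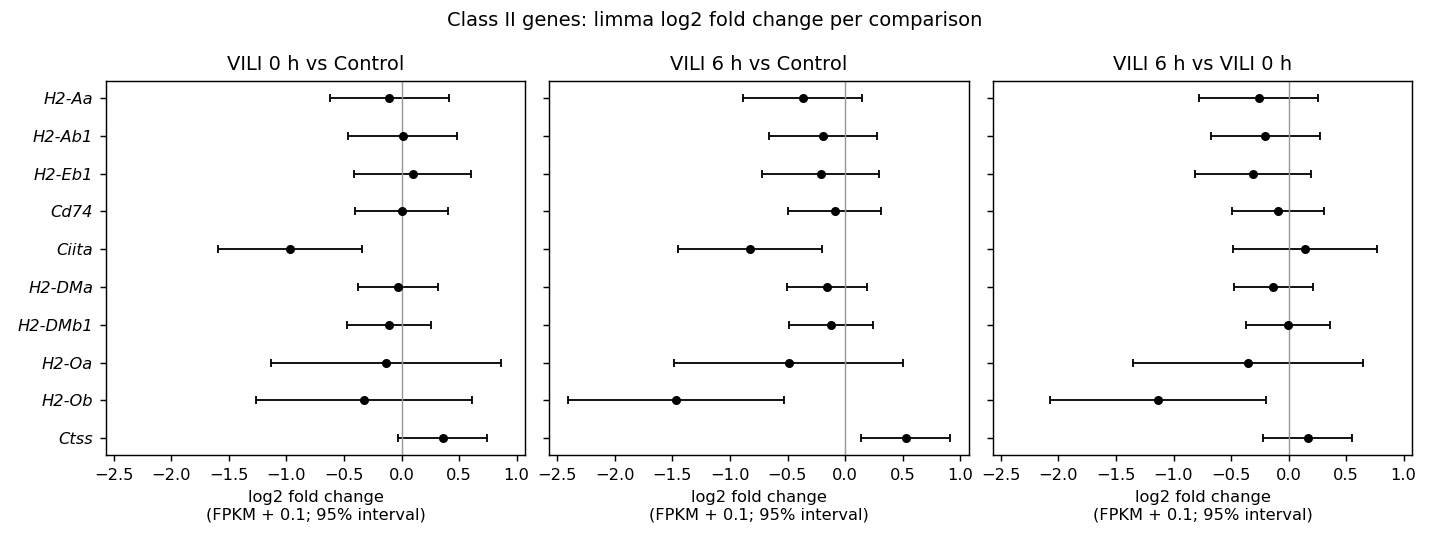
Log2 fold change of each class II gene (x axis, log2 of FPKM + 0.1) with its 95% interval from limma for VILI 0 h vs Control, VILI 6 h vs Control and VILI 6 h vs VILI 0 h. The intervals of Ciita lie below 0 in both comparisons with control, that of H2-Ob below 0 in both comparisons of VILI 6 h, and that of Ctss above 0 at VILI 6 h. The sign of H2-Aa, Cd74, H2-DMa or H2-DMb1, all near 0, turns in some comparisons when libraries are centred on their median.

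The chain genes lie in the MHC on chromosome 17: H2-Ab1 (ENSMUSG00000073421) at chr17:34257689-34269419, H2-Aa (ENSMUSG00000036594) at chr17:34282744-34287823 on the minus strand and H2-Eb1 (ENSMUSG00000060586) at chr17:34305867-34316674 (GRCm38, GENCODE M21). H2-Aa and H2-Ab1 encode the alpha and beta chains of I-A. H2-Aa was at 215, 220 and 219 FPKM in control replicates 1, 2 and 3, at 249, 217 and 153 FPKM in VILI 0 h, and at 121, 179 and 225 FPKM in VILI 6 h. H2-Ab1 was at 142, 142 and 132 FPKM in control, 160, 156 and 109 FPKM in VILI 0 h, and 86.7, 142 and 146 FPKM in VILI 6 h. In both genes VILI 0 h replicate 3 and VILI 6 h replicate 1 were the low libraries, and the groups overlapped. H2-Eb1, the beta chain of I-E, whose alpha chain gene is defective in C57BL/6 mice, was at 107, 100 and 95.8 FPKM in control, 122, 121 and 84.7 FPKM in VILI 0 h, and 59.9, 97.7 and 113 FPKM in VILI 6 h. The same libraries were low. H2-Eb1 has a close paralog, H2-Eb2, so its reads may be split between them. The log2 fold change of the chains in the comparisons with control ran from -0.37 (H2-Aa at VILI 6 h, 95% interval -0.88 to 0.15, limma adjusted p = 0.381) to 0.10 (H2-Eb1 at VILI 0 h, -0.41 to 0.61, adjusted p = 0.868). Whether H2-Aa and H2-Ab1 kept their proportion was also read within libraries: the ratio of H2-Aa to H2-Ab1 was 1.57 ± 0.0734 in control, 1.45 ± 0.0920 in VILI 0 h and 1.397 ± 0.138 in VILI 6 h, with overlapping groups.

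Cd74 (ENSMUSG00000024610, chr18:60803848-60812652) encodes the invariant chain. Cd74 was at 531, 535 and 480 FPKM in control, 573, 581 and 409 FPKM in VILI 0 h, and 381, 550 and 538 FPKM in VILI 6 h. The lowest libraries were again VILI 0 h replicate 3 and VILI 6 h replicate 1, and the other VILI libraries lay above control. In limma the log2 fold change of Cd74 was 0.00 (95% interval -0.40 to 0.40) at VILI 0 h and -0.09 (-0.49 to 0.31, limma adjusted p = 0.789) at VILI 6 h. Cd74 per summed chain FPKM was 1.13 ± 0.0439 in control, 1.14 ± 0.0579 in VILI 0 h and 1.29 ± 0.159 in VILI 6 h, and the groups overlapped.

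Ciita (ENSMUSG00000022504, chr16:10480059-10528418) encodes the transactivator that class II transcription requires. Ciita was at 7.82, 7.23 and 6.30 FPKM in control, 3.84, 5.12 and 2.31 FPKM in VILI 0 h, and 3.70, 5.19 and 3.23 FPKM in VILI 6 h. Every VILI library was below every control library, and the VILI groups overlapped each other. On the log2 scale Ciita differed from control by -0.97 (SE 0.278, limma Benjamini-Hochberg adjusted p = 0.141) at VILI 0 h and -0.82 (SE 0.278, adjusted p = 0.162) at VILI 6 h. These are levels of 0.511 and 0.565 times control. Between VILI 6 h and VILI 0 h the difference was 0.15 (95% interval -0.48 to 0.77). Of the 18 alternative settings, 18 at VILI 0 h and 16 at VILI 6 h kept an unadjusted P under 0.05 for Ciita. Without VILI 0 h replicate 3, its lowest library, the log2 fold change at VILI 0 h was -0.67 (adjusted p = 0.347).

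Ciita was also read against the chains within each library. As a percent of the summed FPKM of the chains, a ratio added after the values were seen, Ciita was at 1.69, 1.56 and 1.41% in control, 0.721, 1.04 and 0.665% in VILI 0 h, and 1.39, 1.24 and 0.668% in VILI 6 h. All VILI libraries were below control. In VILI 0 h replicate 1, Ciita was at 3.84 FPKM and H2-Aa at 249 FPKM, the latter above every control library, while in VILI 0 h replicate 3 both were the lowest of their group, at 2.31 and 153 FPKM.

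H2-DMa (ENSMUSG00000037649, chr17:34119541-34139101) and H2-DMb1 (ENSMUSG00000079547, chr17:34153072-34160230) encode the chains of the peptide editor. H2-DMa was at 14.3, 12.8 and 12.8 FPKM in control, 14.0, 15.6 and 10.1 FPKM in VILI 0 h, and 11.3, 11.9 and 12.5 FPKM in VILI 6 h. Its VILI 6 h libraries all lay below control, by a log2 fold change of -0.16 (SE 0.155, limma adjusted p = 0.573). H2-DMb1 was at 18.9, 18.4 and 20.04 FPKM in control, 18.7, 21.1 and 13.9 FPKM in VILI 0 h, and 15.1, 18.03 and 20.1 FPKM in VILI 6 h, and its groups overlapped. H2-DMb1 has a close paralog, H2-DMb2, and how the authors' counting split reads between them is not known. H2-DMb2, named for its kinship to H2-DMb1, was at 12.5, 9.69 and 9.19 FPKM in control, against 4.46, 9.61 and 5.77 FPKM in VILI 6 h (log2 fold change -0.71, limma adjusted p = 0.264). Over the chains, Cd74, H2-DMa and H2-DMb1, without H2-DMb2, the log2 fold changes lay between -0.11 and 0.10 at VILI 0 h and between -0.37 and -0.09 at VILI 6 h.

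H2-Oa (ENSMUSG00000024334, chr17:34092340-34095234) and H2-Ob (ENSMUSG00000041538, chr17:34238903-34254414) encode H2-O, which is known from B cells, thymic epithelium and some dendritic cells rather than from class II cells in general. H2-Ob was at 10.9, 8.11 and 8.53 FPKM in control, 9.95, 7.995 and 4.72 FPKM in VILI 0 h, and 1.605, 5.78 and 3.57 FPKM in VILI 6 h. The VILI 6 h libraries were all below control, and VILI 6 h replicate 2 was above VILI 0 h replicate 3. The log2 fold change of H2-Ob was -0.33 (SE 0.418, limma adjusted p = 0.741) at VILI 0 h, -1.47 (SE 0.418, adjusted p = 0.121) at VILI 6 h, and -1.14 (SE 0.418, adjusted p = 0.418) between VILI 6 h and VILI 0 h. The difference at VILI 6 h corresponds to 0.362 times control. Without VILI 6 h replicate 1, in which H2-Ob was lowest, the log2 fold change against control was -0.98 (adjusted p = 0.0512), and that against VILI 0 h was -0.66 (adjusted p = 0.255). The difference from control had an unadjusted P under 0.05 in 18 of 18 alternative settings.

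H2-Oa was at 3.58, 2.66 and 2.33 FPKM in control, 3.42, 2.82 and 1.71 FPKM in VILI 0 h, and 0.891, 3.53 and 2.38 FPKM in VILI 6 h. The VILI 6 h value of replicate 2 was near the highest control and that of replicate 1 was the lowest of all 9 libraries. The log2 fold change was -0.49 (SE 0.445, limma adjusted p = 0.541) at VILI 6 h. Without VILI 6 h replicate 1 it was 0.04.

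The balance of inhibitor to editor was read as the summed FPKM of H2-Oa and H2-Ob over that of H2-DMa and H2-DMb1. It was 0.435, 0.345 and 0.331 in control, 0.408, 0.295 and 0.267 in VILI 0 h, and 0.0947, 0.311 and 0.183 in VILI 6 h. The VILI 6 h libraries were below control, with VILI 6 h replicate 2 close to it, and those of VILI 0 h overlapped both groups. The group means were 0.370 ± 0.0563, 0.323 ± 0.0746 and 0.196 ± 0.109.

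**Figure D3:**
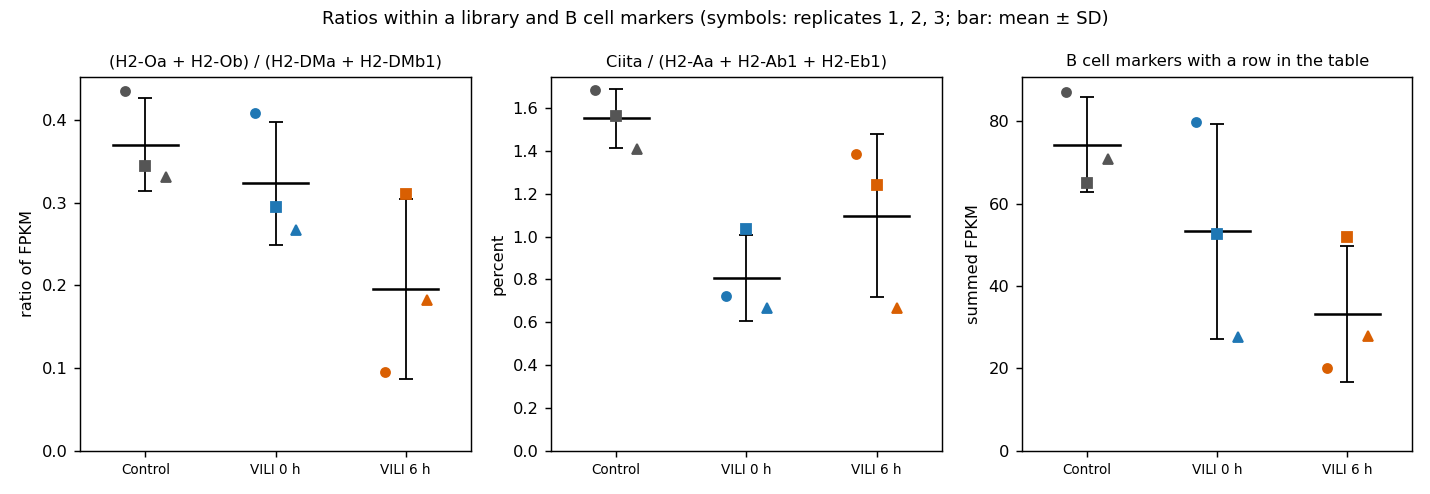
Left, the ratio of H2-O to H2-DM FPKM; middle, Ciita as a percent of the summed chain FPKM; right, the summed FPKM of 10 B cell markers, each by library (circle, square, triangle for replicates 1, 2 and 3, bar for mean ± SD, axes from 0). The H2-O ratio and the B cell markers are below control in all 3 VILI 6 h libraries, and the Ciita percent in all 6 VILI libraries.

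Ctss (ENSMUSG00000038642, chr3:95526786-95556403) encodes cathepsin S, the endosomal protease that makes the last cut in the invariant chain and that macrophages also use outside class II loading. Ctss was at 75.1, 70.5 and 84.4 FPKM in control, 94.4, 120 and 83.5 FPKM in VILI 0 h, and 122, 87.1 and 126 FPKM in VILI 6 h. All VILI 6 h libraries were above control, with VILI 6 h replicate 2 only slightly so, and VILI 0 h replicate 3 lay within the control range. Ctss differed from control on the log2 scale by 0.36 (SE 0.172, limma adjusted p = 0.343) at VILI 0 h and 0.53 (SE 0.172, adjusted p = 0.150) at VILI 6 h, which is 1.44 times control. It had an unadjusted P under 0.05 at VILI 6 h in 18 of 18 alternative settings. At VILI 0 h it did so in 4 of 18, among them the fit without VILI 0 h replicate 3 (log2 fold change 0.47, adjusted p = 0.391).

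Individual libraries set much of the spread. VILI 0 h replicate 3 was the lowest library of its group for 10 of 10 genes, and VILI 6 h replicate 1 was the lowest of its group for 8 of 10 and the lowest of all 9 libraries for 6. Against the control mean, the chains and Cd74 stood on average 0.36 lower on the log2 scale in VILI 0 h replicate 3 (a difference of -0.36) and 0.68 lower in VILI 6 h replicate 1 (-0.68), while the other VILI libraries stood at 0.21, 0.15, -0.05 and 0.09. Ciita did not follow this split, since it was below control in the other VILI libraries too, by between -1.11 and -0.44. Ctss was above the control mean in every VILI library, VILI 6 h replicate 1 included (0.67). Without VILI 6 h replicate 1, the median log2 fold change of the 10 genes at VILI 6 h was 0.02 in place of -0.20. Without VILI 0 h replicate 3, that at VILI 0 h was 0.15 in place of -0.07.

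**Figure D4:**
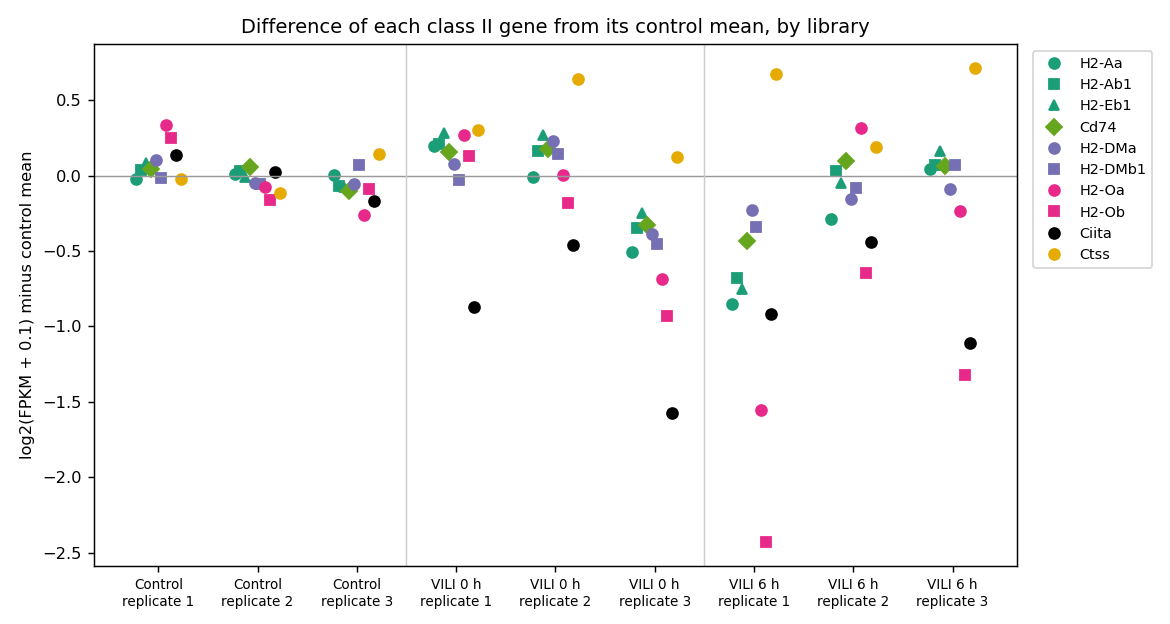
Difference of each class II gene from its control mean (y axis, log2 of FPKM + 0.1) in each of the 9 libraries (x axis), with a colour and symbol per gene. The chains, Cd74 and H2-DM lie together below 0 in VILI 0 h replicate 3 and VILI 6 h replicate 1 and between -0.29 and 0.28 in the other libraries, Ciita lies below 0 in all 6 VILI libraries, and Ctss lies above 0 in all 6.

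The genes whose profile over the 9 libraries was most like the mean profile of the chains and Cd74, among 14098 genes with a mean of at least 1 FPKM, were Atp2a3 (Pearson r = 0.975), Rhoh (0.961), Gpr18 (0.946), Slamf6 (0.944) and Sept1 (0.944). Atp2a3 encodes a calcium pump of the endoplasmic reticulum, Rhoh a GTPase of blood cells, and Slamf6 a receptor of lymphocytes. Of the members outside that profile, H2-Oa had r = 0.899, H2-DMb1 0.830, H2-Ob 0.798 and H2-DMa 0.754. Ciita had r = 0.392 and Ctss r = -0.162. Spearman rho was 0.95 for Atp2a3 and Rhoh, 0.783 for Gpr18, 0.817 for Slamf6 and 0.733 for Sept1. Among the members outside the profile, rho was 0.65 for H2-Oa, 0.683 for H2-DMb1, 0.483 for H2-Ob and 0.783 for H2-DMa. Ciita had rho 0.15 and Ctss rho 0.183, the latter with the other sign than its r. These coefficients describe 9 libraries, and values of 1 library share its depth and its mix of cells.

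The 10 genes had 16 rows, which stand for transcripts, and 15 of them passed the filter. In limma, 0 of the 15 passed the adjusted threshold in any comparison, beside 0.0509%, 0.0751% and 0.0214% of all 37300 rows, and 1, 5 and 2 had an unadjusted P under 0.05, beside 11%, 13.2% and 7.40%. The rows carry no transcript ID, so they cannot be assigned to an isoform. Cd74 was split over its first row at 74.8% and its second at 25.2% of the control level, and the remaining row was listed at 0 in every library. The second row made up 30.8% of Cd74 in VILI 6 h replicate 1 and 19.5% in VILI 6 h replicate 3, against 23.9 to 26.3% in control. Most of H2-Ob lay in its leading row, which held 91.4% of H2-Ob in control and 98.0% in VILI 6 h. Ctss was divided about evenly: its first row was at 46.2, 39.2 and 37.3 FPKM in control, against 51.2, 48.9 and 53.0 FPKM in VILI 6 h, and its second at 29.0, 31.4 and 47.1 FPKM in control, against 70.9, 38.2 and 72.6 FPKM in VILI 6 h. The first row of Ctss had no overlap between VILI 6 h and control (log2 fold change 0.33, limma adjusted p = 0.334), and the second did.

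The authors' assembly also placed a locus without a gene name inside Ciita, on the same strand and within an intron. The locus (XLOC_058584, chr16:10521141-10523117) lies between exons that end at 10521054 and start at 10523719. It was at 0.931, 1.17 and 0.633 FPKM in control, 0.447, 0.477 and 0.1603 FPKM in VILI 0 h, and 0.428, 0.503 and 0.291 FPKM in VILI 6 h. As for Ciita, every VILI library was below every control library. For this locus the log2 fold change was -1.18 (limma adjusted p = 0.358) at VILI 0 h and -0.98 (adjusted p = 0.360) at VILI 6 h. Since the locus shares the strand and span of Ciita, reads from unspliced Ciita RNA and from a separate transcript cannot be told apart there.

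In all, 5 lists of genes around class II, with 52 genes, were read beside the 10. At the adjusted threshold of limma, 0, 1 and 0 of them passed in VILI 0 h against control, VILI 6 h against control and VILI 6 h against VILI 0 h. These counts moved with the libraries fitted: without VILI 6 h replicate 1 they were 6 at VILI 0 h and 6 at VILI 6 h, without VILI 6 h replicate 3 they were 1 and 0, and with only the 6 libraries compared they were 8 and 0. The gene that passed was Spi1, which encodes the myeloid and B cell transcription factor PU.1. Spi1 was at 8.53, 7.48 and 7.98 FPKM in control, 12.9, 15.5 and 12.02 FPKM in VILI 0 h, and 17.1, 14.3 and 19.2 FPKM in VILI 6 h. All VILI libraries were above control. Spi1 rose at VILI 6 h by a log2 fold change of 1.06 (SE 0.141, limma adjusted p = 0.0217), and at VILI 0 h the value was 0.74 (adjusted p = 0.0661). The call at VILI 6 h held in 10 of 18 alternative settings, with adjusted p from 0.00357 to 0.144, and was lost without any of the control libraries (0.102, 0.107 and 0.144 without replicates 1, 2 and 3) and without VILI 6 h replicate 3 (0.0516).

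Among 7 class II transcription factors, the subunits of RFX and NF-Y and Creb1, 2 had an unadjusted P under 0.05 at VILI 0 h, both lower, and 0 at VILI 6 h. Creb1, whose product binds the module of the promoters, was at 17.2, 17.4 and 18.5 FPKM in control, against 4.67, 12.2 and 12.5 FPKM in VILI 0 h (log2 fold change -0.98, limma adjusted p = 0.193). Rfx5, the DNA-binding subunit of RFX and named after its values were seen, was at 6.18, 6.11 and 5.65 FPKM in control, against 5.07, 4.57 and 4.25 FPKM in VILI 0 h (-0.37, adjusted p = 0.227). In both genes the VILI 0 h libraries were all below control. Creb1 was below control in the VILI 6 h libraries too, at 15.7, 12.3 and 11.9 FPKM.

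Of 15 genes of interferon gamma signalling and regulators of Ciita, 14 were tested, and Il10 fell under the filter with a mean of 0.0833 FPKM. Interferon gamma is a known inducer of Ciita. Irf8 and Ifng are named here after their values were seen. At VILI 0 h, 4 of the 14 were lower and 2 higher at an unadjusted P under 0.05, with a list median of -0.30 beside -0.07 for all genes. At VILI 6 h, 1 was lower and 1 higher, with a median of 0.10. Irf8, a factor of dendritic cells and monocytes, was at 16.5, 15.9 and 14.3 FPKM in control, against 8.98, 12.1 and 7.06 FPKM in VILI 0 h (-0.76, adjusted p = 0.102). Socs1, which restrains interferon signalling, was at 3.56, 3.22 and 3.07 FPKM in control, 2.002, 1.97 and 1.605 FPKM in VILI 0 h, and 3.85, 3.18 and 6.15 FPKM in VILI 6 h. Its difference between the VILI groups was 1.15 (adjusted p = 0.180). Ifng itself was under 0.6 FPKM in every library, between 0.0410 FPKM in VILI 6 h replicate 2 and 0.583 FPKM in VILI 6 h replicate 3.

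Of 11 genes of class II processing and turnover, 1 was higher and 1 lower at VILI 0 h, and 3 were higher and 1 lower at VILI 6 h, at an unadjusted P under 0.05. Ctsd, the protease cathepsin D, was at 158, 157 and 162 FPKM in control, against 208, 205 and 186 FPKM in VILI 0 h (log2 fold change 0.33, limma adjusted p = 0.157). March8, a ubiquitin ligase of surface proteins named after its values were seen, was at 25.6, 25.2 and 24.8 FPKM in control, against 10.8, 23.1 and 14.5 FPKM in VILI 0 h (-0.71, adjusted p = 0.181). At VILI 6 h, Lgmn, the protease legumain, had the lowest p of the list (0.32, adjusted p = 0.176). Ifi30, a thiol reductase of endosomes chosen after its values were seen, was listed at 0 in 6 of 9 libraries and at 12.7, 13.6 and 24.4 FPKM in control replicate 2 and VILI 0 h replicates 1 and 2, so no fold is given for it.

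Costimulation and class I presentation gave few low p-values. Among 6 costimulatory genes, Cd40, the receptor through which T cells activate antigen-presenting cells, was at 5.19, 6.38 and 4.81 FPKM in control, 3.23, 3.46 and 2.62 FPKM in VILI 0 h, and 4.49, 5.19 and 4.36 FPKM in VILI 6 h. Cd40 was below control in every VILI 0 h library (log2 fold change -0.79, limma adjusted p = 0.0757) and its VILI 6 h libraries overlapped control. Of 13 class I genes, 1 had an unadjusted P under 0.05 in either comparison with control, Erap1, an aminopeptidase that trims class I peptides (-0.32 at VILI 0 h, adjusted p = 0.264, and -0.34 at VILI 6 h, adjusted p = 0.200). The medians of the class I list were -0.05 and 0.01.

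**Figure D5:**
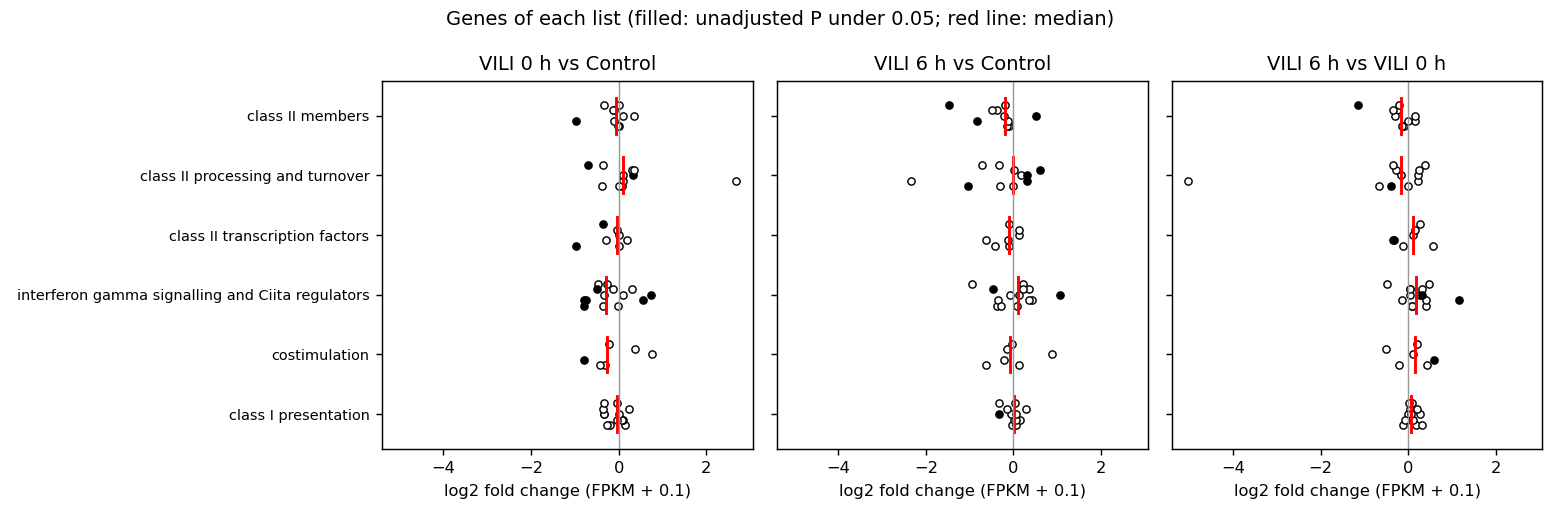
Log2 fold change (x axis, log2 of FPKM + 0.1) of each gene of the class II list and of the 5 lists around it in the 3 comparisons, filled where the unadjusted P was under 0.05, with a red line at the list median. List medians lie between -0.30 and 0.17, and the point farthest from 0 in each panel, in the list of class II processing and turnover, is Ifi30, whose place there is no measured fold because it is listed at 0 in 6 libraries.

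Markers of the cells that carry class II were read as whole lists. Of 12 B cell markers, 10 had a row, Ighm and Ighd being without one. Their summed level was 87.2, 65.2 and 70.8 FPKM in control, 79.8, 52.7 and 27.6 FPKM in VILI 0 h, and 20.02, 51.8 and 27.9 FPKM in VILI 6 h. The low libraries of the class II genes, VILI 0 h replicate 3 and VILI 6 h replicate 1, were the lowest of their groups here too, as they were for the summed T cell, costimulation, class II processing, interferon gamma and class I lists. At VILI 6 h, 8 of the 10 were lower than in control at an unadjusted P under 0.05 and 0 passed the adjustment in limma, with a median log2 fold change of -1.27. At VILI 0 h the counts were 2 and 0, with a median of -0.62. Ms4a1, which encodes CD20, was at 7.59, 6.56 and 7.96 FPKM in control, against 1.35, 2.67 and 2.03 FPKM in VILI 6 h (-1.86, limma adjusted p = 0.0587). None of the 10 was at 0 in all libraries. H2-Ob as a percent of the summed B cell markers, added after the values were seen, was 12.43, 12.45 and 12.04% in control. In VILI 0 h it was 12.47, 15.2 and 17.1%, and in VILI 6 h 8.01, 11.2 and 12.8%. On this scale VILI 0 h was above control, in replicate 1 only just, and VILI 6 h overlapped control. Ciita on the same scale was 9.65 ± 1.24%, 7.63 ± 2.53% and 13.4 ± 4.51%, with overlapping groups. The other 8 genes were above control on this scale in all 3 VILI 6 h libraries, H2-Oa in all 3 VILI 0 h libraries as well. The summed markers were themselves below control in all 3 VILI 6 h libraries, so a gene that fell less than they did comes out higher here. The share of all genes without overlap on this scale was not taken. The part of B cells in the class II values was not tested.

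Of 13 dendritic cell markers, all with a row, 2 were lower and 1 (Cd24a) higher than control at an unadjusted P under 0.05 at each time. In limma 0 passed the adjustment. The log2 fold change was positive for 6 and negative for 7 at VILI 0 h, and positive for 2 and negative for 11 at VILI 6 h. Fscn1 and Xcr1 had the lowest p of the list at VILI 0 h and VILI 6 h. Fscn1, an actin bundler of mature dendritic cells, was at 7.41, 7.41 and 5.70 FPKM in control, against 4.37, 3.73 and 2.51 FPKM in VILI 0 h (log2 fold change -0.96, limma adjusted p = 0.0939). Xcr1, a receptor of conventional dendritic cells, was at 0.969, 1.04 and 0.789 FPKM in control, against 0.0535, 0.576 and 0.368 FPKM in VILI 6 h (-1.49, adjusted p = 0.175). The sum of the list, 182 to 204 FPKM in control, 217 to 253 FPKM in VILI 0 h and 191 to 244 FPKM in VILI 6 h, is carried mostly by Cd24a, which other cells also express. Without Cd24a it was 48.6 to 55.5 FPKM in control, 39.8 to 53.3 FPKM in VILI 0 h and 43.1 to 50.9 FPKM in VILI 6 h, with overlapping groups. The part of dendritic cells in the class II values was not tested.

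Alveolar macrophage markers summed to 297 to 354 FPKM in control, 414 to 510 FPKM in VILI 0 h and 318 to 696 FPKM in VILI 6 h, and at an unadjusted P under 0.05, 5 of 10 were higher at VILI 0 h, 3 were higher and 1 (Car4) lower at VILI 6 h, and 3 were lower in VILI 6 h than in VILI 0 h, with 0 by the adjusted p in limma in each comparison. Monocyte markers summed to 429 to 443 FPKM in control, 458 to 658 FPKM in VILI 0 h and 502 to 810 FPKM in VILI 6 h, and of 8 markers 0 had an unadjusted P under 0.05 in limma at VILI 0 h and 3 at VILI 6 h, all higher, with 0 by the adjusted p. For the dendritic cell, B cell, T cell, monocyte, alveolar macrophage and interstitial macrophage lists, sums were also taken without the most abundant gene. This alternative was added after the values were seen. Without Chil3, the alveolar macrophage sum was 160 to 168 FPKM in control, 205 to 215 FPKM in VILI 0 h and 168 to 246 FPKM in VILI 6 h, where replicate 1 lay within the control range. Without Ace, the monocyte sum was 171 to 190 FPKM in control, 152 to 269 FPKM in VILI 0 h and 234 to 444 FPKM in VILI 6 h, so that VILI 0 h overlapped control and VILI 6 h did not. Interstitial macrophage markers summed to 162 to 185 FPKM in control, 192 to 270.0 FPKM in VILI 0 h and 189.5 to 409.8 FPKM in VILI 6 h. Of 8 markers, 0 had an unadjusted P under 0.05 in limma at VILI 0 h and 2 at VILI 6 h, higher, with 0 by the adjusted p. Without Lyve1 the sum was 80.6 to 85.5 FPKM in control, 79.4 to 93.9 FPKM in VILI 0 h and 85.29 to 124.3 FPKM in VILI 6 h. Both VILI groups thus overlapped control, VILI 6 h only just and only in its lowest library. Alveolar type 2 markers, which label epithelial cells that also carry class II, summed to 14020 to 15340 FPKM in control, 13910 to 16290 FPKM in VILI 0 h and 13210 to 14090 FPKM in VILI 6 h. Most of that sum is Sftpc, named after its values were seen, at 9684 to 12500 FPKM over all libraries. The sum without Sftpc was not taken. T cell markers, of which 8 of 10 had a row, Trac and Trbc2 being without one, ran from 12.9 FPKM in VILI 6 h replicate 1 to 40.3 FPKM in VILI 0 h replicate 1. The sums of the alveolar type 1 and endothelial lists overlapped between each VILI group and control. The part of these cells in the class II values was not tested.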

How the data were processed

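Per the study's methods, the authors removed adapter and low-quality reads, aligned the rest with TopHat2 2.0.9, assembled transcripts with Scripture and Cufflinks, and deposited FPKM per transcript from Cuffdiff 2.1.1. The submitters' processing notes also name Bowtie2 2.0.6 and GRCm38. The library kit named in the labels and that in the methods differ, so strand use is unsettled. The table held 60108 rows and 27203 gene IDs, 3729 rows being assembled loci without a gene. It gives no counts per gene, and the read totals that the study states for each library were not used here.

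Here FPKM were summed over the rows of a gene, genes with a mean of at least 0.1 FPKM were kept, and log2(FPKM + 0.1) was fitted with limma 3.58.1 (R 4.3.3; eBayes with a trend) on all 9 libraries, without a replicate block. P-values were adjusted by Benjamini-Hochberg over all 19378 genes, or over 37300 rows. A fold change on this scale understates that of low genes. Single values were compared by exact permutation (scipy 1.17.1, two-sided). The model code was tested on simulated data. Libraries were grouped by the treatment label. Per the study, the libraries of a group came from separate mice.

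The 10 genes, the pathway and marker lists and the motifs were chosen with earlier results of these data known. All 10 genes were named in every comparison. Of a list, the gene with the lowest p in a comparison and those with an adjusted p under 0.05 could be named, and others are marked as named after their values were seen. The values of 1 gene of these lists are not reported here. Coordinates are those of GENCODE M21, and promoters those of RefSeq on GRCm38.p6. Alternatives were pseudocounts of 0.01 and 1, other filters, centring of each library on its median, the 6 libraries of a comparison alone, no trend, a replicate block, the row with the highest mean FPKM, medians in place of means, and leaving out each library.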

Additional observations from a re-analysis of the deposited data

Results flagged for a closer look

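In the authors' assembly, loci without a gene name lay on the strand opposite to H2-Ab1, H2-Aa and Cd74, outside the comparisons of the report. A locus opposite H2-Ab1 (XLOC_069172) had a mean of 0.1802 FPKM in control, 0.3321 FPKM in VILI 0 h and 0.3739 FPKM in VILI 6 h, and all 6 VILI libraries were above control (limma adjusted p = 0.544 and 0.377). A transcript opposite Cd74 (the second row of XLOC_075633) averaged 0.3728 FPKM in VILI 6 h against 0.1125 FPKM for control, with all 3 VILI 6 h libraries above control (limma adjusted p = 0.411). It was listed at 0 in VILI 0 h replicate 3. These loci were picked out because their levels were above control in every library of the group. Because it is unsettled whether the counting used strand, reads of a gene and of its antisense partner cannot be told apart, and the levels are low.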

How the results depend on the processing

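Of 540 values of the 10 genes under alternatives (18 per comparison), 507 kept their direction and side of the adjusted threshold, 33 had the other sign, and 0 passed the adjusted threshold in limma. The reversed values belonged to genes whose log2 fold change was at most 0.491 in size. Centring each library on its median added 0.115, 0.127 and 0.012 to every log2 fold change in VILI 0 h against control, VILI 6 h against control and VILI 6 h against VILI 0 h. It turned the sign at VILI 0 h for H2-Aa (0.007327), Cd74 (0.1148), H2-DMa (0.08763) and H2-DMb1 (0.00175), at VILI 6 h for Cd74 (0.03572) and H2-DMb1 (0.008146), and between the VILI groups for H2-DMb1 (0.006396). Cd74 at VILI 0 h was 2.652e-05 with a pseudocount of 1 and 0.01509 from its highest row.

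Members with an unadjusted P under 0.05 at VILI 0 h numbered 2 with median-centred libraries and 2 with only the 6 libraries compared. For the pathway lists, the 6 libraries alone gave 8 adjusted and 21 unadjusted calls at VILI 0 h, 0 adjusted at VILI 6 h and 3 unadjusted between the VILI groups, where centring gave 2. At VILI 6 h the adjusted count was also 0 without a trend (unadjusted 4), with the replicate block and from the highest row. The cause was not tested.

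Leaving out 1 library gave 1 to 2 members at an unadjusted P under 0.05 at VILI 0 h and 0 to 2 between the VILI groups. The pathway lists gave 0 to 6 adjusted calls at VILI 0 h and 0 to 6 at VILI 6 h, 6 in both without VILI 6 h replicate 1, and unadjusted counts of 2 to 14 at VILI 6 h and 4 to 12 between the VILI groups. At VILI 0 h, log2 fold changes ranged from -0.258 to 0.0935 for H2-Aa, -0.0895 to 0.187 for H2-Ab1, -0.0874 to 0.165 for Cd74, -0.155 to 0.154 for H2-DMa, -0.242 to 0.0570 for H2-DMb1 and -0.342 to 0.137 for H2-Oa. At VILI 6 h they ranged from -0.326 to 0.0506 for H2-Ab1, -0.397 to 0.0592 for H2-Eb1, -0.185 to 0.0795 for Cd74 and -0.895 to 0.0410 for H2-Oa. Between the VILI groups they ranged from -0.379 to 0.0412 for H2-Ab1, -0.256 to 0.0795 for Cd74, -0.158 to 0.399 for Ciita, -0.176 to 0.123 for H2-DMb1 and -0.758 to 0.178 for H2-Oa.

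Same-numbered libraries of different groups did not deviate together (correlations of -0.221 to 0.017, beside -0.122 to 0.167 for libraries of different number). This check showed no pairing by number and cannot exclude one, since the deviations are from means of 3 libraries. With the replicate block, 0, 0 and 0 members passed the adjusted threshold in the 3 comparisons, 1, 3 and 1 had an unadjusted P under 0.05, and the call of Spi1 was lost (limma adjusted p = 0.0598). With 3 libraries a group and no counts per gene, the precision of low genes such as H2-Oa is not known beyond the spread shown.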
